A study of Mus musculus with 20 samples.

Results

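Aminoacyl-tRNA synthetases are the enzymes that attach each amino acid to its matching transfer RNA, so that the ribosome can read the genetic code. In BV-2 microglia, an immortalized cell line made from the microglia of young mice, most genes of the cytosolic synthetases rose after lipopolysaccharide (LPS). Of 17 genes of the mitochondrial ones, 10 fell in young and 8 in aged cultures. Of all genes tested, 31.2% were called higher and 33.5% lower in young, and 27.5% and 26.9% in aged cultures. The counts of members depend in part on how libraries are scaled. The members were chosen by name, as the protein-coding genes of the GENCODE mouse annotation whose symbol has the form of a synthetase gene and which encode one. There are 38 of them among 55487 genes in the count table. Of these, 21 encode cytosolic enzymes, Tarsl2 included, and 17, the others with a symbol ending in 2, encode mitochondrial enzymes. Gars and Kars, the glycyl and lysyl enzymes, serve both compartments from 1 gene and were counted as cytosolic.

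The 20 RNA-seq libraries fall into 4 groups of 5 cultures, each of wild-type BV-2 cells in the same serum-containing medium: young untreated, aged untreated, young LPS and aged LPS. LPS, a component of the bacterial outer membrane that activates Toll-like receptor 4, was given at 100 ng/ml for 6 hours. Young cells were low-passage controls, and aged cells were BV-2 cells frozen after long-term cultivation, so ageing here means time in culture of 1 cell line and not age of an animal. Both were thawed at the same time and grown on, and the labels give the replicate number as a batch number, with 1 culture of every group in each batch. Whether the aged cultures go back to separate long-term cultivations is not given in the sources used here, so p-values measure the spread between these cultures.

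Libraries held 11371508 to 16829292 counts, of which the synthetase genes took 0.646% to 0.851%. Libraries of 1 group differed from each other by 2.37 to 25.7 chi-square units per degree of freedom, so none repeats another. Of 13 microglial and macrophage markers, 11 were above 3 counts in every library, and Cx3cr1 and P2ry12, which mark microglia in the brain, were at or below it in some. The summed level of those 13 markers was 2970 to 3990 CPM (counts scaled to a common library size) over the group means. None of 4 neuronal and none of 4 fibroblast markers passed 3 counts in any library, and the sums of astrocyte, oligodendrocyte and endothelial markers were at most 1.36 CPM in any group.

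In a cell, the cytosolic synthetases supply the ribosomes that translate nuclear transcripts. Several of them sit together in the multi-synthetase complex, held by scaffold proteins. The mitochondrial synthetases are made from nuclear genes, imported, and charge the transfer RNAs for the few proteins that the mitochondrial genome encodes. Many cytosolic synthetase genes are textbook targets of ATF4, the transcription factor of the amino acid response, which also drives asparagine synthetase (Asns). Wars, the tryptophanyl enzyme, is known as an interferon-inducible gene.

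Levels are given as CPM on library sizes scaled by TMM, a normalization that assumes that most genes do not change. Per kilobase of exon, cytosolic synthetases had a median of 43.5 CPM per kb in young untreated cultures and mitochondrial synthetases 7.04 CPM per kb. Nars, the asparaginyl enzyme, was highest over the length of all exons, at 93.7 ± 8.88 CPM per kb (SD, n = 5). It was followed by Vars at 88.0 ± 3.86 and Rars at 87.9 ± 6.44 CPM per kb, and these neighbours do not differ beyond their spread. Cars, the cysteinyl enzyme, was the lowest cytosolic member with reads, at 10.7 ± 0.848 CPM per kb. Cars2, its mitochondrial counterpart, was the lowest of all members with reads over the length of all exons, at 1.89 ± 0.0993 CPM per kb. With the length of the principal transcript in place of all exons, the medians were 69.2 and 10.4 CPM per kb. The order within each set then changed, with Kars highest at 166, Nars at 149, Lars2 at 138 and Vars at 119 CPM per kb, and with Wars2 lowest at 4.78 and Cars2 at 7.18 CPM per kb. Lars2, the mitochondrial leucyl enzyme, was the exception among the mitochondrial members, with 48.5 ± 13.2 CPM per kb. Whether all reads counted for Lars2 come from that gene was not tested, and its level varied widely between cultures, as described below. Tarsl2, a second threonyl enzyme of the cytosol, was at 0 counts in all 20 libraries and was not tested. The other 37 members, 20 cytosolic and 17 mitochondrial, passed the filter on low counts.

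**Figure D1:**
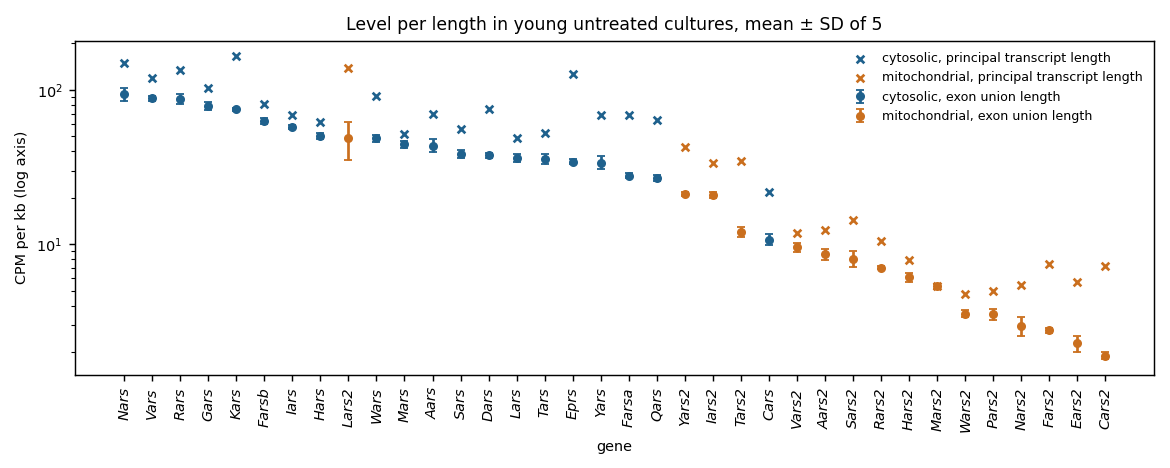
Level of 36 synthetase genes in CPM per kb (vertical log axis) in young untreated cultures, ordered by level. Points are means ± SD of 5 cultures over the length of all exons and crosses use the principal transcript, with cytosolic genes in blue and mitochondrial genes in orange. The cytosolic genes lie above most mitochondrial ones, with Lars2 (48.5 CPM per kb) among the cytosolic genes and Cars (10.7 CPM per kb) among the mitochondrial ones, and Tarsl2, at 0, is not drawn.

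LPS raised cytosolic synthetase transcripts and lowered mitochondrial ones in young cultures. Of 20 cytosolic members, 17 rose, none fell (0 also at an unadjusted p below 0.05 and 0 with DESeq2's Wald test) and 3 did not pass the test. Of 17 mitochondrial members, 1 rose, 10 fell and 6 did not pass. The median log2 fold change was 0.29 for cytosolic and -0.20 for mitochondrial members, against -0.011 for all 12799 genes tested. Among all genes, 31.2% were called higher and 33.5% lower (edgeR's quasi-likelihood test, Benjamini-Hochberg adjusted p below 0.05). In bulk RNA, fewer cells of a kind and less RNA per cell cannot be told apart.

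The response of aged cultures had the same shape. There, 16 of 20 cytosolic members rose and none fell, while 8 of 17 mitochondrial members fell and none rose. Both zeros were also 0 at an unadjusted p below 0.05 (edgeR) and with DESeq2. The medians were 0.25 and -0.17, against 0.00051 for all genes, of which 27.5% were called higher and 26.9% lower. All 16 cytosolic members that rose in aged cultures also rose in young ones, where Farsa, the alpha subunit of the phenylalanyl enzyme, rose too. All 8 mitochondrial members that fell in aged cultures also fell in young ones, where Iars2 and Sars2 fell too. The difference between the young and the aged response was not called for any of these 3. Over all genes, the authors also report a significant overlap of the young and aged responses. The shared calls are therefore not read as particular to the synthetases. Of the exon length of Iars2, 22.9% overlaps Rab3gap2 on the other strand. Mars, Qars and Vars, the methionyl, glutaminyl and valyl enzymes, were called in neither response, with log2 fold changes of -0.07 to 0.10.

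**Figure D2:**
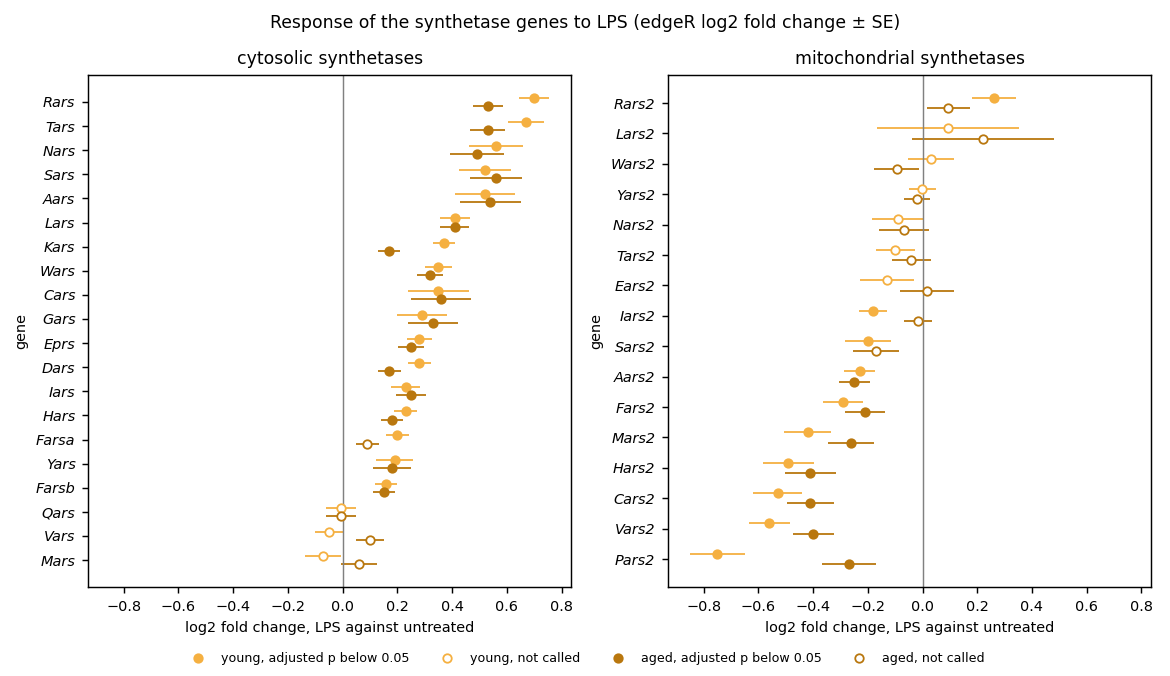
Log2 fold change (horizontal axis) of the 20 tested cytosolic (left) and 16 of the 17 mitochondrial (right) synthetase genes after LPS, with SE from edgeR. Light points are young and dark points aged cultures, filled where the adjusted p was below 0.05. Most cytosolic genes lie right of 0, up to 0.70 for Rars, and most mitochondrial genes lie left of it, down to -0.75 for Pars2.

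The split depends in part on the scaling. TMM factors were 1.04 to 1.08 in untreated cultures, 0.891 to 0.931 in young LPS cultures and 0.952 to 0.973 in aged LPS cultures. With library sizes alone, the median of all genes shifted to -0.231 in the young response and to -0.16 in the aged one. The calls then became 8 cytosolic members higher and 3 lower (Mars, Qars and Vars), and 15 mitochondrial members lower, in young cultures, where 18.8% of all genes were higher and 50% lower. In aged cultures they became 7 cytosolic members higher and 1 lower (Qars), and 14 mitochondrial members lower, beside 17% and 42.8% of all genes. Relative to the median of all genes, the cytosolic median was 0.30 and the mitochondrial median -0.19 in the young response under both scalings, and 0.25 and -0.17 in the aged response. Scaling shifts all genes of a comparison nearly alike, so the equal values follow from the subtraction and are no separate support.

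Rars, the arginyl enzyme and a member of the multi-synthetase complex (chr11:35808381-35834506, minus strand, GRCm38), had the largest rise in young cultures. It measured 248, 283, 296, 294 and 298 CPM in the young untreated cultures and 420, 485, 458, 470 and 479 CPM in the young LPS cultures. In aged cultures it measured 304, 312, 294, 312 and 314 CPM without LPS and 479, 433, 401, 463 and 438 CPM with LPS. Every LPS culture was above every untreated one. The log2 fold change was 0.70 ± 0.055 (SE) in young cultures (adjusted p = 1.63e-10) and 0.53 ± 0.055 in aged ones (adjusted p = 3.31e-08, edgeR).

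Tars, the threonyl enzyme of the cytosol (chr15:11382301-11399665, minus strand), followed. It measured 191, 207, 202, 231 and 222 CPM in young untreated and 303, 328, 345, 338 and 366 CPM in young LPS cultures. In the aged groups its levels were 247, 242, 215, 232 and 255 CPM without and 382, 328, 306, 349 and 352 CPM with LPS. The treated and untreated cultures did not overlap at either age. Tars rose by 0.67 ± 0.065 in young cultures (adjusted p = 5.19e-09) and by 0.53 ± 0.065 in aged ones (adjusted p = 3.9e-07).

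Nars and Aars, the asparaginyl and alanyl enzymes, were next in young cultures. Nars went from 343, 409, 418, 445 and 425 CPM to 476, 610, 595, 666 and 651 CPM, a log2 fold change of 0.56 ± 0.099 (adjusted p = 3.66e-05). Aars (chr8:111033144-111057664, plus strand) went from 350, 384, 413, 452 and 421 CPM to 498, 524, 586, 679 and 613 CPM, a change of 0.52 ± 0.11 (adjusted p = 0.000236). The groups of neither gene overlapped, and culture 1 was the lowest of its group in each of these 4 sets. In aged cultures Aars changed by 0.54 ± 0.11 (adjusted p = 0.000212), with treated cultures at 515 to 858 CPM and untreated ones at 375 to 500 CPM. Of the exon length of Aars, 14.3% lies on the same strand in Exosc6, an exosome subunit gene, and reads there could be counted for either.

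Sars, the seryl enzyme, had the largest rise in aged cultures. It measured 246, 222, 198, 218 and 238 CPM without LPS and 400, 304, 266, 340 and 343 CPM with it. All treated cultures were above all untreated ones, and the spread of the treated ones was wide, with culture 1 highest and culture 3 lowest. The log2 fold change was 0.56 ± 0.094 (adjusted p = 2.73e-05).

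Wars rose as well. Its levels were 158, 160, 163, 176 and 177 CPM in young untreated cultures and 216, 207, 205, 220 and 218 CPM in young LPS cultures. In aged cultures it measured 186, 178, 165, 177 and 191 CPM, and 240, 215, 213, 228 and 226 CPM with LPS. The groups did not overlap at either age. Its changes of 0.35 ± 0.048 (adjusted p = 1.1e-06) and 0.32 ± 0.048 (adjusted p = 6.26e-06) were near the middle of those of the cytosolic members.

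Vars2, the mitochondrial valyl enzyme, fell from 48.9, 47.9, 56.1, 54.5 and 53.0 CPM to 32.3, 32.4, 34.2, 41 and 36.3 CPM in young cultures, and its groups did not overlap. Its log2 fold changes were -0.56 ± 0.076 in young (adjusted p = 8.6e-07) and -0.40 ± 0.075 in aged cultures (adjusted p = 0.000103). Its cytosolic counterpart Vars was called in neither. Cars2 fell from 14.1, 13.9, 13.8, 14.0 and 12.4 CPM to 11.2, 9.37, 9.17, 8.88 and 8.99 CPM in young cultures. All treated cultures were below all untreated ones, and the changes were -0.53 ± 0.089 in young (adjusted p = 2.02e-05) and -0.41 ± 0.086 in aged cultures (adjusted p = 0.000353). Part of the exons of Cars2 (5.8%) overlaps Naxd on the other strand.

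Hars2, the mitochondrial histidyl enzyme, measured 25.1, 25.4, 28.5, 27.2 and 21.9 CPM in aged untreated cultures and 15.7, 18.0, 23.7, 20.2 and 18.7 CPM in aged LPS cultures. These groups overlapped, since the treated culture 3, at 23.7 CPM, was above the untreated culture 5. The change was -0.41 ± 0.092 (adjusted p = 0.000609). Hars2 lies head to head with Hars, its cytosolic counterpart, and 195 bp of their exons overlap on opposite strands. Hars itself rose by 0.23 ± 0.041 and 0.18 ± 0.04 in young and aged cultures.

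The mitochondrial members that did not fall included Rars2, which rose by 0.26 in young cultures and was at 0.0944 in aged ones, where it was not called. Ears2, Lars2, Nars2, Tars2, Wars2 and Yars2 were called in neither response. Fars2 and Aars2 fell in both, by 0.21 to 0.29 on the log2 scale, and Mars2 by 0.42 in young and 0.26 in aged cultures.

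Set amino acid by amino acid, 18 combinations of a cytosolic and a mitochondrial gene cover 17 amino acids. They are not all separate, since Eprs and Fars2 each enter more than 1. In all 18, the log2 fold change of the cytosolic gene was above that of its mitochondrial counterpart, in young and in aged cultures. In 9 combinations in young and 6 in aged cultures, the cytosolic gene was called higher and the mitochondrial gene lower. Of all genes, 31.2% were higher and 33.5% lower in young, and 27.5% and 26.9% in aged cultures. Proline had a wide gap in young cultures, with Eprs, the fused glutamyl-prolyl enzyme, at 0.28 and Pars2 at -0.75. Cysteine had another, with Cars at 0.35 and Cars2 at -0.53. Tyrosine had the smallest, with Yars at 0.19 and Yars2 near 0. With library sizes alone this order was kept in 18 of 18 combinations at each age. It could not change, since scaling shifts both genes of a combination nearly alike, so it is no separate support. The count called in opposite directions, which can change, became 5 at each age. Of all genes, 18.8% were then higher and 50% lower in young, and 17% and 42.8% in aged cultures.

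Of the 8 synthetases of the multi-synthetase complex, 6 rose in young cultures with a median of 0.28. Of the 12 tested outside it 11 rose with a median of 0.32, beside 31.2% of all genes. In aged cultures 6 of 8 and 10 of 12 rose, beside 27.5% of all genes. The scaffold gene Eef1e1 (p18) of the complex rose by 1.01 ± 0.069 in young (adjusted p = 1.62e-11) and 0.75 ± 0.069 in aged cultures (adjusted p = 3.36e-09). The other scaffold genes Aimp1 and Aimp2 each passed the test at 1 age only, with changes of 0.12 to 0.18, and a difference between ages was not called for any of the 3. By structural class, all 10 cytosolic class II members tested and 6 of 9 class I members rose in young cultures, and the bifunctional Eprs was counted apart. In aged cultures these counts were 9 of 10 and 6 of 9.

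**Figure D3:**
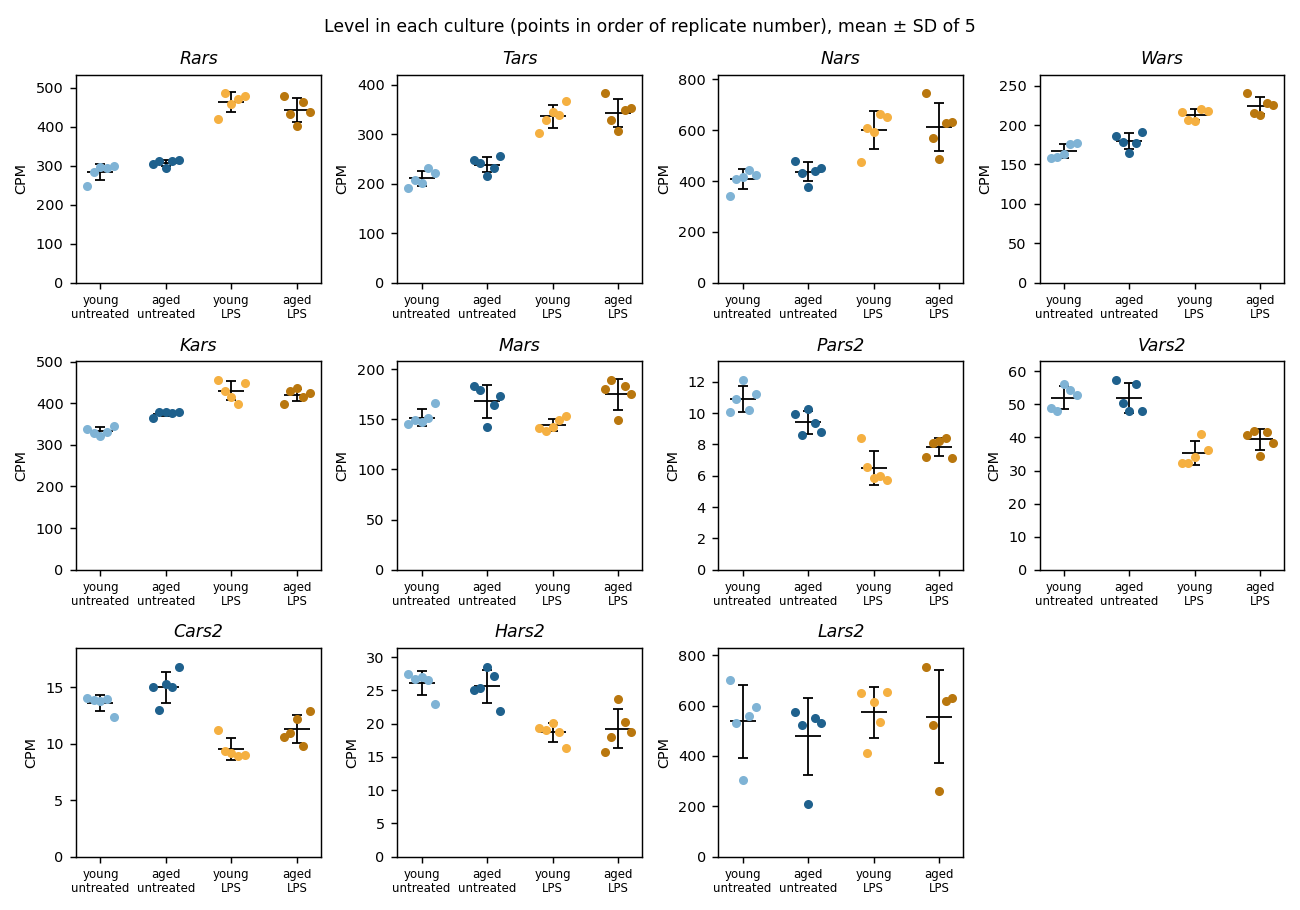
Level in CPM (vertical axis) of 11 synthetase genes in every culture of the 4 groups, with points in order of replicate number and bars for the mean ± SD of 5. Rars, Tars, Nars and Wars lie higher with LPS at both ages, Vars2 and Cars2 lower, and Lars2 ranges from 209 to 753 CPM without separating the groups.

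Other genes of the pathway are read against the shares of all genes, 31.2% higher and 33.5% lower in young and 27.5% and 26.9% in aged cultures. Of the 10 elongation factors listed, 7 rose and none fell in young cultures and 6 rose in aged ones. These included the cytosolic factors Eef2 (0.28 and 0.30), Eef1a1 (0.24 and 0.21) and Eif5a (0.25 and 0.21). Of 13 other enzymes of tRNA charging and proofreading, none rose and 9 fell at each age. Pstk and Sephs2, which serve the synthesis of selenocysteinyl-tRNA, were among them with -0.64 and -0.59 in young cultures, and Prorsd1, an editing enzyme, with -0.59. Of 21 genes of tRNA processing and export tested, 5 rose and 5 fell in young cultures, no more than among all genes in either direction, with Tsen34, a subunit of the splicing endonuclease, lowest at -0.87. Of 52 tested genes with symbols beginning Eif1 to Eif6, 35 rose and 7 fell in young cultures (median 0.22). This set, taken by symbol, is wider than the initiation factors. It also holds Eif5a, counted above, and Eif4ebp1, one of the other ATF4 genes counted below. Of 78 mitochondrial ribosomal protein genes, 14 rose and 28 fell (median -0.062), a share lower that is near that of all genes. In aged cultures the Eif1 to Eif6 set gave 29 higher and 7 lower (median 0.17), and mitochondrial ribosomal protein genes 10 higher and 21 lower (median -0.051).

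The 11 cytosolic synthetases commonly described as ATF4 targets had a median of 0.35 in young and 0.33 in aged cultures, with 10 of 11 higher at each age and Mars as the exception. The 9 tested that are not on that list had 0.23 and 0.17, with 7 and 6 higher, and Rars, the largest rise, is one of them. Of 24 other ATF4 genes tested, 13 rose and 2 fell in young cultures, and 15 rose and none fell in aged ones, beside 31.2% of all genes higher and 33.5% lower in young and 27.5% and 26.9% in aged cultures. Slc7a11, the cystine transporter, rose most, by 4.78 and 5.22. Ddit3, a stress-induced transcription factor, rose by 1.81 in young and Trib3 by 2.16 in aged cultures. The transcript of Atf4 itself rose by 0.77 and 0.74, and Asns rose by 0.42 ± 0.17 (adjusted p = 0.0332) and 0.50 ± 0.17 (adjusted p = 0.0128).

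Cultures of the same group differed in most of the ATF4-list synthetases together, though not in all. This was noticed in these data and is described without a test. Asns measured 99.2, 120, 108, 132 and 135 CPM in young untreated, 157, 135, 97.4, 136 and 158 CPM in aged untreated, 115, 150, 147, 193 and 185 CPM in young LPS and 268, 176, 123, 200 and 203 CPM in aged LPS cultures. Its lowest culture was replicate 1 in both young groups and replicate 3 in both aged groups. In the aged LPS group all 11 listed synthetases were also lowest in culture 3, and 10 of 11 were highest, like Asns, in culture 1. In the other groups the highest culture was that of Asns for 4 of 11 in young untreated, 3 of 11 in aged untreated and 8 of 11 in young LPS cultures. In young untreated, aged untreated, young LPS and aged LPS cultures it matched for 4, 2, 1 and 3 of 9 off the list. In the same order it matched for 3, 1, 2 and 5 of 17 mitochondrial members, and for 18.1% to 23.6% of all genes tested. The lowest culture was that of Asns for 10 of 11 in young untreated, 10 of 11 in aged untreated and 7 of 11 in young LPS cultures. For cytosolic synthetases off the list these counts were 2, 1, 2 and 2 of 9 in young untreated, aged untreated, young LPS and aged LPS cultures. For mitochondrial members they were 3, 4, 1 and 7 of 17, and for all genes tested the share was 25.9% to 27.4%.

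Aars, for example, was 0.40 above its group mean (log2) in aged LPS culture 1, and its deviation in culture 3 was -0.33. The deviations of Asns were 0.51 and -0.61. Those of Kars were -0.08 and 0.05 in the same cultures. The SD of the deviations within groups was 0.193 for Aars and 0.197 for Cars, and 0.0518 for Kars and 0.0504 for Hars. Its median was 0.113 for synthetases on the list, 0.0554 for those off it, 0.129 for mitochondrial members and 0.145 for all genes tested. Leaving out each replicate number in turn left 18 members higher in the young LPS response each time and 15 or 16 in the aged one.

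**Figure D4:**
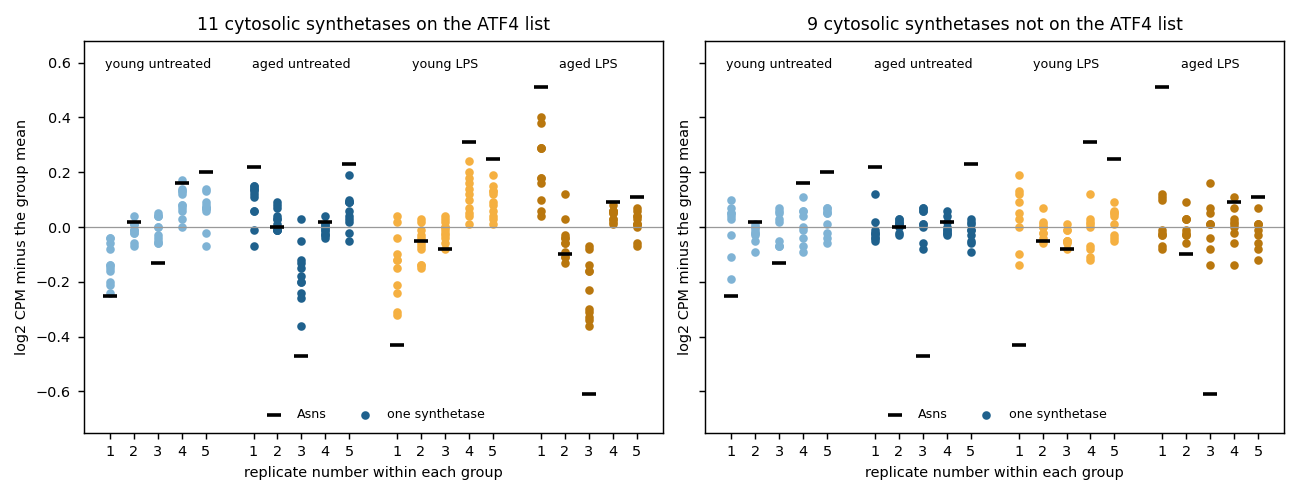
Deviation of log2 CPM from the group mean (vertical axis) in each of the 20 cultures, for 11 cytosolic synthetases on the ATF4 list (left) and 9 off it (right). Dots are synthetases and black bars Asns. On the left most dots lie with the bar in aged LPS cultures 1 (high) and 3 (low), with exceptions in other groups such as Eprs in aged untreated cultures, and on the right they stay closer to 0.

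Promoter sequence was read from RefSeq (GRCm38.p6, 250 bases before to 50 after each start), where 28 of the 38 members matched by symbol, with 29 promoters. The cytosolic Cars, Hars, Lars, Nars, Rars, Vars and Wars had no matched promoter and were not searched. The C/EBP-ATF element, the DNA motif that ATF4 binds with its partners, was searched as TGATGNAA on both strands. It was found in 5 of 14 cytosolic and 0 of 14 mitochondrial members matched. All 5 are among the 8 matched members of the ATF4 list, and 3.97% of all 32851 promoters hold the motif. A stretch that holds it is shown for each of the 5, since the motif is the one that the ATF4 list refers to. Each is written 5′ to 3′ in the orientation of the motif, with the motif in capitals.
Aars, chr8:111033840-111033869, minus strand: tcagagcgctcTGATGAAAagtgacccgct
Gars, chr6:55037960-55037989, minus strand: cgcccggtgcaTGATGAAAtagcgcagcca
Iars, chr13:49682126-49682155, minus strand: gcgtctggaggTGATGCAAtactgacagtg
Tars, chr15:11399655-11399684, plus strand: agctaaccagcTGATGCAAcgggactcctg
Yars, chr4:129189895-129189924, plus strand: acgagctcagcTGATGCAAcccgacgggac

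A match is a description of these letters and not a measured binding site. Of these 5 genes, Tars and Aars were among the 4 members with the largest rise in young cultures, while Gars (0.29), Iars (0.23) and Yars (0.19) were at or below the median of the cytosolic members in young cultures. The SD within groups ranged from 0.0826 (Iars) to 0.193 (Aars) among these 5, and Sars, on the list and matched with no such motif in its window, had 0.166.

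Lars2 varied more than any other member. It measured 702, 531, 304, 558 and 595 CPM in young untreated, 576, 523, 209, 549 and 531 CPM in aged untreated, 652, 413, 614, 535 and 654 CPM in young LPS and 753, 522, 259, 617 and 631 CPM in aged LPS cultures. Culture 3 was the lowest in 3 of the 4 groups, and the groups overlapped. The SD of its deviations within groups was 0.508, above that of the other 36 members (0.0496 to 0.197), and 4.98% of genes tested had a larger one. Gm23935, a short gene model of the miRNA class (chr16:11144125-11144181), was singled out from these data as the gene that followed Lars2 most closely. Its deviations within groups correlated with those of Lars2 at r = 0.977 over 20 libraries. It was low in the same cultures, at 119 CPM in young untreated, 71.1 in aged untreated and 95.7 in aged LPS culture 3. All other cultures had 187 CPM or more. What links the genes was not tested. Because Lars2 holds much of the summed mitochondrial level, the sum was 1260 ± 150 CPM in young untreated and 1181 ± 120 in young LPS cultures, but 722 ± 20.4 and 607 ± 25.9 CPM without Lars2 (SD, n = 5). In aged cultures the whole sum was 1204 ± 142 CPM untreated and 1212 ± 181 CPM with LPS, and without Lars2 it was 726 ± 21.0 CPM untreated and 655 ± 9.16 CPM with LPS. The cytosolic sum was 5042 ± 177 and 6366 ± 288 CPM in young and 5405 ± 182 and 6708 ± 497 CPM in aged cultures.

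The next question was whether aged and young cultures differed before LPS. Without LPS, 3 cytosolic members were higher in aged cultures, none was lower, and no mitochondrial member was called. At an unadjusted p below 0.05, edgeR had 8 cytosolic members higher and 0 lower, and 2 mitochondrial members higher and 1 lower, and DESeq2 called the 3 and no other. Of all genes tested, 3.71% were called higher and 7.81% lower. The direction was positive for 18 of 20 cytosolic and 8 of 17 mitochondrial members, with medians of 0.13 and -0.0014, and for 46.4% of all genes. All 3 members called are class II enzymes, as are 10 of the 20 cytosolic members tested. With LPS, the cytosolic members called higher in aged cultures were 3 of class I and 1 of class II.

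Kars (chr8:111993443-112011323, minus strand) measured 339, 329, 322, 332 and 345 CPM in young and 365, 378, 378, 376 and 379 CPM in aged untreated cultures. Hars, the cytosolic histidyl enzyme, measured 120, 121, 117, 128 and 129 CPM in young and 138, 137, 146, 139 and 139 CPM in aged cultures. Dars, the cytosolic aspartyl enzyme, measured 170, 164, 156, 159 and 169 CPM in young and 179, 186, 193, 180 and 183 CPM in aged cultures. In none of the 3 did the groups overlap. The log2 fold changes were 0.17 ± 0.041 for Kars (adjusted p = 0.00839), 0.18 ± 0.04 for Hars (adjusted p = 0.00521) and 0.17 ± 0.042 for Dars (adjusted p = 0.0115). These genes were also among the least variable members between cultures of a group. Cars, Sars and Tars, with changes of 0.20, 0.18 and 0.18, were not called and their groups overlapped. The mitochondrial Rars2, at 0.19 ± 0.079 (adjusted p = 0.126, edgeR), was not called though its groups did not overlap.

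The call depends on the fit. Blocking on replicate number gave 5 members higher, adding Tars and Aars2, beside 6% of all genes. With only the untreated groups in the fit, 7 were higher, namely Dars, Hars, Iars, Kars, Sars, Tars and Rars2, beside 5.12% of all genes. Without the cultures of replicate 2, Hars alone was called.

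**Figure D5:**
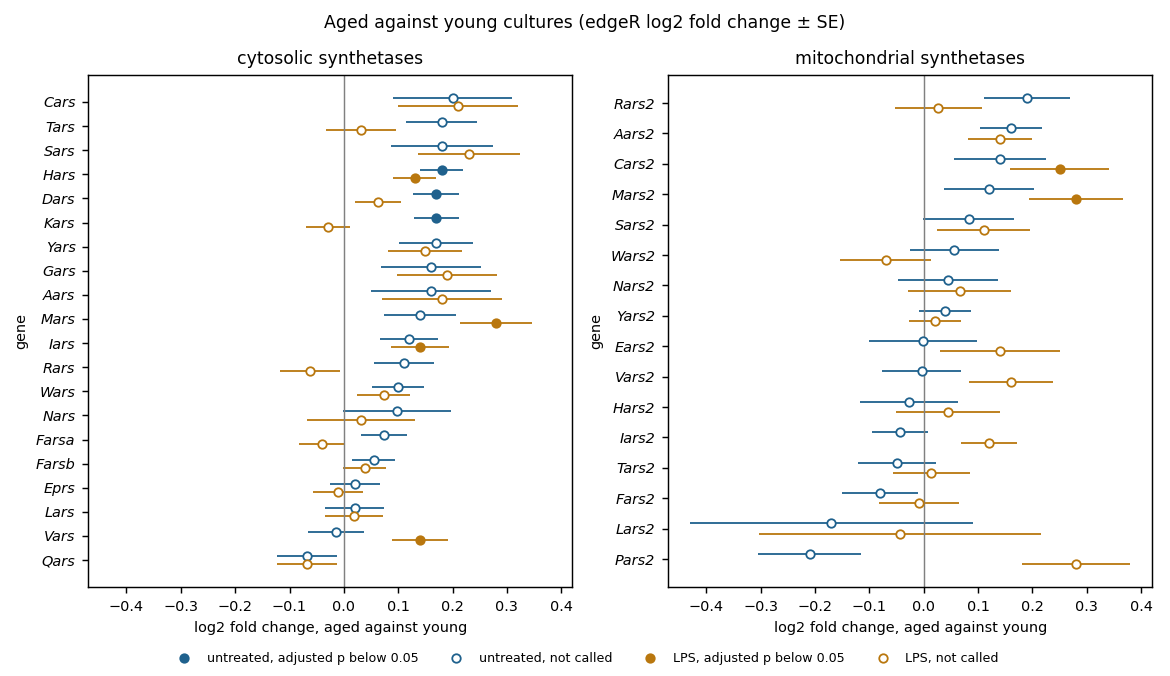
Log2 fold change (horizontal axis) of the 20 tested cytosolic (left) and 16 of the 17 mitochondrial (right) synthetase genes in aged against young cultures, with SE from edgeR. Blue points are untreated and brown points LPS-treated cultures, filled where the adjusted p was below 0.05. Most cytosolic genes lie right of 0 with no change above 0.28, and few are filled.

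With LPS, 6 of 37 members were higher in aged than in young cultures, a share near the 14% of all genes called higher. None was lower (0 at an unadjusted p in edgeR, 0 with DESeq2), against 15% of all genes. The 6 were the cytosolic Hars, Iars, Mars and Vars and the mitochondrial Cars2 and Mars2. With library sizes alone 17 members were higher, beside 24.7% of all genes, since the median of all genes then shifted to 0.0884.

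Mars, the cytosolic methionyl enzyme, measured 141, 138, 142, 149 and 153 CPM in young LPS and 180, 189, 149, 183 and 175 CPM in aged LPS cultures. Only the aged culture 3 fell within the young range. The difference was 0.28 ± 0.066 (adjusted p = 0.0028), and 68 bp of its exons overlap Ddit3 on the other strand. Mars2, which charges methionine in mitochondria, measured 46.0, 38.5, 48.6, 45.7 and 45.1 CPM in young and 47.7, 60.5, 54.4, 61.5 and 48.9 CPM in aged LPS cultures, a difference of 0.28 ± 0.086 (adjusted p = 0.0157). Aged culture 1 lay within the young range and culture 5 just above it. Cars2 and Iars differed by 0.25 ± 0.091 (adjusted p = 0.0399) and 0.14 ± 0.054 (adjusted p = 0.0458). Neither passed with DESeq2's Wald test (adjusted p of 0.0643 and 0.0614), and over all alternatives their adjusted p ranged from 0.00519 to 0.186 and from 0.00405 to 0.198. Without replicate 2, and without replicate 4, Mars was the 1 member called.

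The difference of the LPS responses asks whether the response itself changed with time in culture. It was called for 2 of 37 members, 1 in each direction. This is near the shares of all genes, 4.12% higher in aged cultures and 2.27% lower. For the cytosolic members the median difference was -0.016, and for the mitochondrial members 0.072.

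In the main fit, Kars responded less in aged cultures. It measured 455, 430, 416, 399 and 449 CPM in young LPS and 399, 430, 436, 415 and 424 CPM in aged LPS cultures, and these groups overlapped. From its higher level in aged untreated cultures the rise was 0.17 ± 0.041 (adjusted p = 0.00137), against 0.37 ± 0.041 in young ones (adjusted p = 4.77e-08). The difference was -0.20 ± 0.057 (adjusted p = 0.0389).

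Pars2, the mitochondrial prolyl enzyme (chr4:106651069-106655282, plus strand), fell less in aged cultures in the main fit. It measured 10.1, 10.9, 12.1, 10.2 and 11.2 CPM in young untreated and 8.40, 6.55, 5.86, 5.97 and 5.75 CPM in young LPS cultures. In aged cultures it measured 9.96, 8.61, 10.3, 9.39 and 8.79 CPM, and 7.23, 8.08, 8.21, 8.44 and 7.16 CPM with LPS. LPS and untreated cultures did not overlap at either age, and the aged LPS cultures were above the young LPS cultures other than culture 1, which was at 8.40 CPM. The falls were -0.75 ± 0.1 (adjusted p = 8.15e-07) and -0.27 ± 0.099 (adjusted p = 0.0255), and their difference was 0.49 ± 0.14 (adjusted p = 0.0411). It is one of the lowest members, at 3.51 CPM per kb.

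Both differences are close to the threshold. Library sizes alone (adjusted p = 0.115) and no filter on low counts (adjusted p = 0.215) ended the call of Kars in edgeR, and DESeq2's size factors (adjusted p = 0.0549) and no filter (adjusted p = 0.113) that of Pars2. Leaving out any replicate number ended the call of Kars, with adjusted p from 0.0657 to 0.214, and leaving out replicate 2, 3, 4 or 5 ended that of Pars2, with adjusted p from 0.151 to 0.252. With replicates as blocks both passed, and Iars2 passed too, giving 2 members higher beside 5.63% of all genes.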

How the data were processed

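The authors prepared stranded poly(A) libraries, sequenced paired-end reads on an Illumina NextSeq instrument, aligned them to GRCm38 with STAR 2.6.1d and counted them per gene with featureCounts 1.5.1. They deposited unnormalized counts per Ensembl gene. Its settings for strand and overlapping genes are not given in the sources used here, so genes that overlap others are uncertain. All sample columns were used and matched to the labels by name. Symbols, positions and exon lengths came from GENCODE vM21, which holds 55227 of the identifiers.

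All 20 libraries were fitted together by edgeR's quasi-likelihood model (edgeR 4.0.16 in R 4.3.3), with 1 coefficient per group and TMM-scaled library sizes, over the 12799 genes that filterByExpr kept. Benjamini-Hochberg adjustment ran over these genes, and an adjusted p below 0.05 was called. The script was tested on simulated counts with 200 changed genes, as many raised as lowered. These are far fewer than LPS changed, so the simulation does not address how the LPS calls depend on scaling. Total counts were 11371508 to 16829292, so that 3 counts, taken as the floor of detection, correspond to 0.165 to 0.296 CPM, for counting error only. Log2 CPM used a prior count of 2.

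Members, gene lists and the promoter motif were chosen with earlier results of these data known. The rule for full statistics took members called in the difference of the LPS responses, the 4 highest and 4 lowest called in each other comparison, and Wars. Of other lists, at most the 3 largest changes in each direction were named. Mars, Qars and Vars as members that did not respond, Atf4, Asns, Gm23935 and genes used to illustrate a group were chosen after their values were seen. Values of 1 mitochondrial member, which counts, medians and sums include, and 1 promoter stretch are not reported here.

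The labels' batch field equals the replicate number in every sample, so the numbers pair the cultures. Between groups, cultures of 1 number deviated from their means with a correlation across genes of -0.214 to 0.394 (mean 0.146). Between untreated and LPS cultures of the same age it was 0.122 to 0.394, and between ages -0.214 to 0.275. The main fit did not use this pairing. Alternatives were the replicate block, DESeq2's Wald test (DESeq2 1.42.0), DESeq2's size factors, library sizes alone, no filter, at least 10 counts in every library, only the groups compared, and each replicate number left out. The principal transcript length was added after seeing the data. Python 3.11.15 with pandas 2.3.3 and matplotlib 3.10.9 served for summaries and plots.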

Additional observations from a re-analysis of the deposited data

Results flagged for a closer look

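The LPS response differed between young and aged cultures, by the test of the difference itself, for Kars (-0.20 on the log2 scale) and Pars2 (0.49). Both are described above with the alternatives that end the call.

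In 148 sets of 5 cultures (37 members in 4 groups), a culture stood apart from the other 4 by Dixon's ratio in 10 sets, and chance flags about 1 in 20. Lars2 had the widest gap, with aged untreated culture 3 at 209 CPM and the others at 523 to 576 CPM. Rars was low in young untreated culture 1, at 248 CPM against 283 to 298 CPM. Hars was high in aged untreated culture 3, at 146 CPM against 137 to 139 CPM, and low in aged LPS culture 1, at 151 CPM against 160 to 162 CPM. Kars was low in aged untreated culture 1, at 365 CPM against 376 to 379 CPM. Qars was high in aged LPS culture 3, at 188 CPM against 161 to 167 CPM. Cars2 was low in young untreated culture 5, at 12.4 CPM against 13.8 to 14.1 CPM, and high in young LPS culture 1, at 11.2 CPM against 8.88 to 9.37 CPM. Fars2 was low in aged LPS culture 4, at 11.5 CPM against 13.0 to 13.5 CPM. Hars2 was low in young untreated culture 5, at 23.0 CPM against 26.6 to 27.5 CPM.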

How the results depend on the processing

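Of 27 changes of named members, 20 kept direction and call under every alternative run, and none reversed. The 7 others were Dars and Kars without LPS, Cars2, Iars and Mars2 in aged against young LPS cultures, and both differences of the LPS responses. Library sizes alone moved the LPS counts to 8 higher and 18 lower in young and 7 higher and 15 lower in aged cultures, and the count of aged against young LPS cultures to 17 higher. Its medians were 0.0693 and -0.42 in the young and 0.0925 and -0.33 in the aged response, for cytosolic and mitochondrial members. The replicate block gave 5 members higher in aged untreated cultures (3 without it) and 2 in the difference of the LPS responses (1 without it), and changed no other count by over 1.5 times. Only the groups compared gave 7 higher without LPS and 3 with LPS. DESeq2's Wald test, its size factors and no filter each gave 3 higher in aged LPS cultures. In the difference of the LPS responses, DESeq2's size factors gave 0 higher, library sizes alone 0 lower, and no filter 0 in each direction. Leaving out each replicate number gave 1 to 4 members higher in aged untreated cultures, 1 to 7 in aged LPS cultures, and 0 to 2 higher and 0 lower in the difference of the responses. The median level per kb was 69.2 and 10.4 CPM with the principal transcript, against 43.5 and 7.04. The causes of these shifts were not tested. Counting error was not separated from the spread between cultures.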
